A study of Mus musculus with 12 samples.

Results

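RLTR6 is a group of mouse endogenous retroviruses of the gammaretroviral type. In the repeat annotation used for these counts it appears under 4 names of the ERV1 family, out of 18538 repeat names in all and 119 in that family. RLTR6-int is the internal part of the element, and RLTR6_Mm, RLTR6B_Mm and RLTR6C_Mm are variants of the long terminal repeat (LTR) that flanks it. The members were chosen by name, and the group as a whole was selected on the KO and WT counts of these same libraries, whose results were already known. The values and p-values given for its members therefore describe these libraries and are no independent support.

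The data were total RNA libraries of C57BL/6 mouse embryos at the 2-cell stage, 1.5 days after fertilization, with 6 libraries per genotype. KO embryos (Kdm4a knockout, m-/p-) came from Kdm4a knockout oocytes, and WT embryos (m+/p-) came from wild-type oocytes. The sperm were Kdm4a knockout in both cases, so the WT embryos too carried no working paternal allele. Kdm4a encodes a demethylase of histone H3. The labels do not say how many embryos or mothers stand behind a library, so the p-values measure the spread between these libraries, which may be technical. The sources used here do not say how the knockout was made.

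An endogenous retrovirus is the remnant of a retroviral infection of the germ line. It is transcribed from the LTR at one end of its internal part to the LTR at the other, and many copies have recombined to an LTR that stands alone in the genome. An LTR name can therefore collect reads from complete elements, from solitary LTRs and from transcripts of genes that run through them, whereas an internal name collects reads from copies that kept their body. LTRs of the RLTR6 type also flank VL30 elements, whose internal part is counted under MMVL30-int. Histone H3 lysine 9 methylation is a well known silencing mark of endogenous retroviruses in mouse cells.

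Total counts lay between 7952526 in KO replicate 5 and 18902360 in WT replicate 4. The 2-cell marker MERVL-int was abundant in every library, with 2.48% to 4.27% of counts in KO and 4.42% to 7.0% in WT. Ribosomal RNA repeats held 5.55% ± 0.775 of counts in KO and 5.74% ± 0.488 in WT (SD, n = 6 each). The LTR class as a whole held 47.7% ± 2.88 in KO and 55.9% ± 2.05 in WT, while the ERV1 family held 1.18% ± 0.0675 in KO and 1.19% ± 0.0634 in WT. WT replicate 2 stood apart from its group on the first 2 principal components (26.6% and 16.2% of the variance), and KO replicate 5 on the second. KO replicates 1 and 6 lay away from the other KO libraries on the first, at -10.4 and -11.0.

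All 4 RLTR6 names were lower in KO embryos. Levels are given as normalised CPM, read counts brought to a common library size with TMM factors, a scaling that sets the typical repeat equal between libraries. Among all 3312 repeats tested, 1.42% were called in either direction and 1.27% were called lower in KO (edgeR quasi-likelihood test, Benjamini-Hochberg adjusted p under 0.05). All 4 RLTR6 names passed the filter on low counts, with 192 counts or more in every library. Levels of different names are not compared here, since the files give no lengths. A smaller number of cells with RLTR6 RNA and less RLTR6 RNA per cell cannot be told apart in these libraries.

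The internal part, RLTR6-int, would hold the gag, pol and env region of an intact provirus. It stood at 501 normalised CPM in the lowest, 549 in the median and 801 in the highest KO library. In WT the corresponding values were 799, 914 and 1107. The groups met at a single point, where KO replicate 2 lay just above WT replicate 2, and the other 5 KO libraries lay below every WT library. The means were 596 ± 118 in KO and 925 ± 120 in WT (SD, n = 6 each). The log2 fold change, KO over WT, was -0.63 (standard error 0.12, 95% interval -0.90 to -0.37, edgeR adjusted p = 0.0212), so that KO embryos had 35.6% less. DESeq2 and limma-voom with quality weights also called all 4 names lower, where they called 3.83% and 1.87% of all repeats lower.

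RLTR6_Mm, the LTR variant that carries the group's plain name, had a lowest, median and highest level of 64.3, 83.3 and 109 normalised CPM in KO. In WT its levels were 113, 129 and 144. The KO libraries all lay below the WT libraries, by a narrow margin between KO replicate 2 and WT replicate 1. The means were 83.8 ± 15.7 in KO and 129 ± 12.3 in WT (SD, n = 6 each). The log2 fold change was -0.62 (standard error 0.12, 95% interval -0.88 to -0.36, edgeR adjusted p = 0.0212), close to that of the internal part.

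RLTR6B_Mm, the LTR variant with the most counts, showed the widest scatter among KO libraries relative to its mean. Its lowest, median and highest levels were 86.0, 127 and 200.1 normalised CPM in KO and 218, 233 and 293 in WT. No KO library reached the lowest WT library. The means were 134 ± 42.1 in KO and 247 ± 30.0 in WT (SD, n = 6 each), which gave a log2 fold change of -0.88 (standard error 0.17, 95% interval -1.25 to -0.50, edgeR adjusted p = 0.0217). KO embryos had 45.5% less. The highest KO library held 2.33 times the level of the lowest, against 1.34 times among WT libraries.

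RLTR6C_Mm was the least counted variant. Its lowest, median and highest levels were 15.4, 20.7 and 25.9 normalised CPM in KO and 30.8, 35.9 and 43.4 in WT. Here the groups were separated most clearly, with the lowest WT library 1.19 times the highest KO library. The means were 20.6 ± 3.58 in KO and 37.1 ± 4.98 in WT (SD, n = 6 each). The log2 fold change was -0.86 (standard error 0.14, 95% interval -1.16 to -0.55, edgeR adjusted p = 0.0149), with the 5th smallest p among the 3312 repeats.

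Every KO library was thus below every WT library for 3 of the 4 names, a pattern shown by 1.39% of all tested repeats. In each of the 4 names the highest KO level belonged to replicate 2, while the lowest belonged to replicate 1 for the 3 LTR variants and to replicate 6 for the internal part. The 95% intervals of the 4 log2 fold changes overlap widely.

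**Figure D1:**
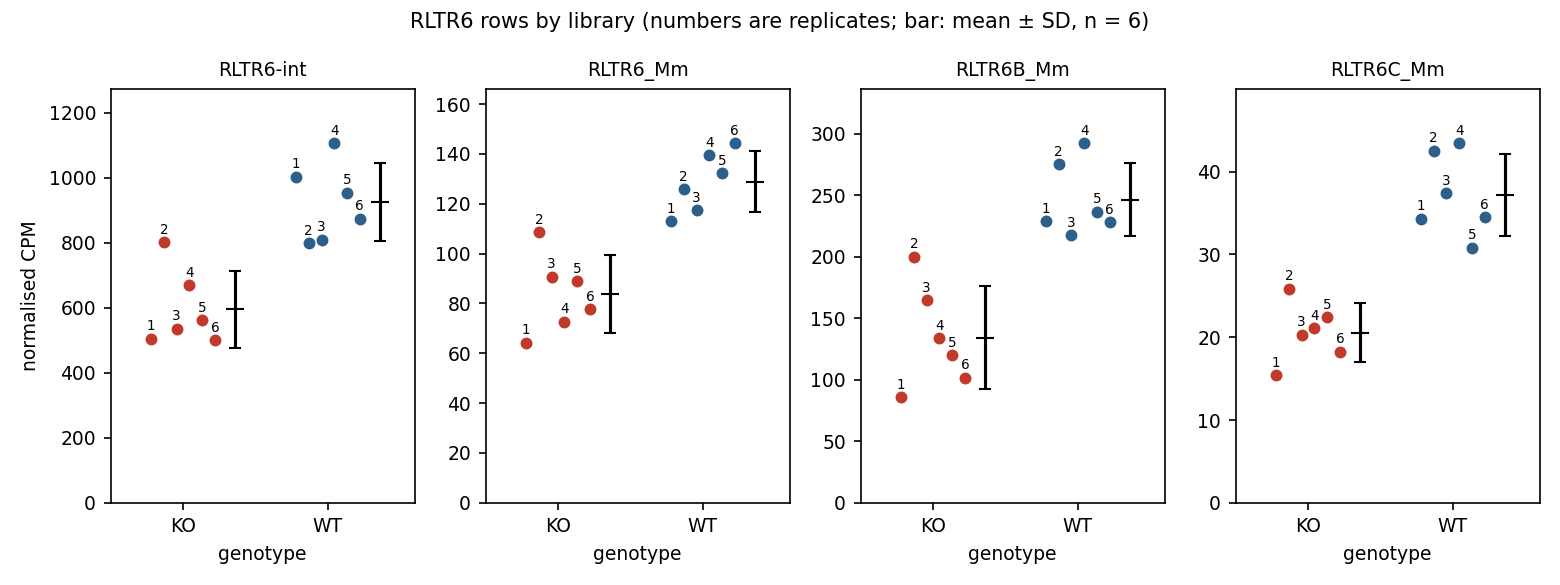
Normalised CPM (vertical axis, from 0) of the 4 RLTR6 names in each KO and WT library, with replicate numbers beside the points and the mean ± SD (n = 6) at the right of each group. KO libraries lie below WT libraries throughout, except that KO replicate 2 (801) lies just above WT replicate 2 (799) for RLTR6-int.

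The size of the difference depended on the scaling. When libraries were scaled by total counts alone, the log2 fold change of the median repeat moved to 0.32, against 0.01 under TMM, and the RLTR6 names remained lower. RLTR6B_Mm and RLTR6C_Mm then had log2 fold changes of -0.59 and -0.56 and were still called (edgeR adjusted p = 0.0144 and 0.0137, where 0.996% of all repeats were called lower). RLTR6-int and RLTR6_Mm had log2 fold changes of -0.35 and -0.33 and lost the call (edgeR adjusted p = 0.0790 and 0.0842). In plain CPM, without TMM factors, RLTR6C_Mm had 22.7 ± 2.03 in KO and 33.3 ± 4.16 in WT (SD, n = 6 each), again without overlap, as in 0.423% of all repeats. For the other 3 names the plain values of the groups overlapped.

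The 4 names together made up 0.0919% ± 0.0103 of all counts in KO and 0.121% ± 0.0206 in WT (SD, n = 6 each). Their lowest, median and highest shares were 0.0844%, 0.0873% and 0.111% in KO and 0.0954%, 0.122% and 0.151% in WT. Only KO replicates 2 and 4 reached into the WT range. Of the counts of the ERV1 family, the group took 7.80% ± 1.12 in KO and 10.2% ± 1.26 in WT (SD, n = 6 each). The groups overlapped, with a highest KO share of 9.78% and a lowest WT share of 8.61%. On the means, RLTR6 was a smaller part of a family whose total share was nearly equal in the genotypes. These sums describe the group and were not tested.

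The calls of 3 of the 4 names could be lost when 1 library was left out, while their log2 fold changes stayed below -0.55. Such a fit has fewer libraries, so a lost call need not single out the library removed. RLTR6-int lost its call without KO replicates 1, 3, 5 or 6 (edgeR adjusted p = 0.0552, 0.0598, 0.0542 and 0.0660) and without WT replicates 1 or 6 (0.0572 and 0.0515). RLTR6_Mm lost it without KO replicate 6 (0.0660) or WT replicate 6 (0.0576). RLTR6B_Mm lost it without KO replicates 5 or 6 (0.0584 and 0.0687) or WT replicates 4 or 6 (0.0515 and 0.0523). RLTR6C_Mm kept its call without each of the 12 libraries, with an adjusted p of at most 0.0480. All 4 adjusted p-values fell to 0.00979 without KO replicate 2, the KO library with the most RLTR6 RNA. WT replicate 2 and KO replicate 5, both apart from their groups on the second principal component, were also left out together. The edgeR adjusted p was then 0.0561 for RLTR6-int, 0.0608 for RLTR6_Mm, 0.0872 for RLTR6B_Mm and 0.0396 for RLTR6C_Mm.

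**Figure D2:**
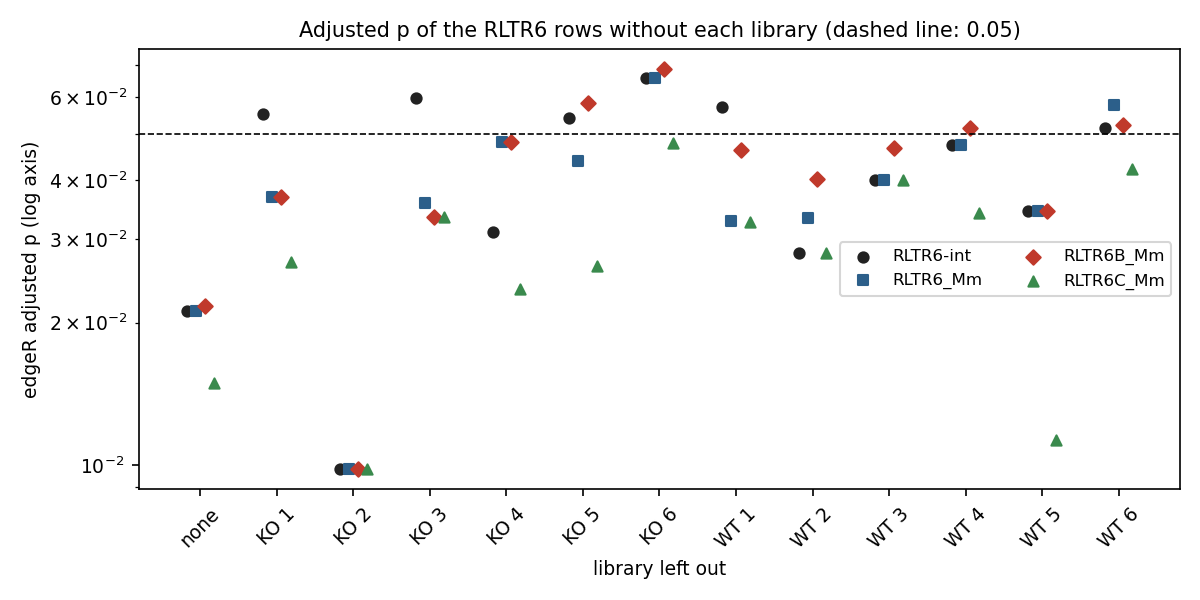
Adjusted p of the edgeR test (vertical log axis) for the 4 RLTR6 names with no library left out and without each KO and WT library in turn (horizontal axis); the dashed line is the threshold of 0.05. RLTR6C_Mm (triangles) stays under the line throughout, and the other 3 names lie above it without KO replicate 6 (0.0660 to 0.0687) and WT replicate 6.

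The ratio of terminal to internal counts within a library needs no scaling and asks whether LTR and body of the element changed alike. It compares numbers of reads, not of copies, since the lengths and copy numbers behind the names are not in the files. The 3 terminal names together held 32.8% (lowest), 40.3% (median) and 51.5% (highest) of the RLTR6-int counts in KO, and 37.5%, 44.5% and 55.5% in WT. The means were 40.1% ± 6.70 in KO and 45.1% ± 6.05 in WT (SD, n = 6 each). The groups overlapped over most of their range, and RLTR6-int made up 71.5% ± 3.34 of the group's counts in KO and 69.0% ± 2.82 in WT.

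The 3 LTR variants were compared one by one by exact permutation tests over all 924 regroupings (two-sided, smallest possible p 0.0021645), adjusted over the 3 ratios. RLTR6_Mm counts amounted to 14.2% ± 2.26 of RLTR6-int counts in KO and 14.1% ± 1.95 in WT (SD, n = 6 each). The difference of the mean log2 ratios, KO minus WT, was 0.01 (exact permutation p = 0.935, adjusted p = 0.935), and 3 of 6 KO libraries lay below the WT median. This LTR and the internal part thus kept nearly equal mean ratios in the genotypes, with a spread between libraries far larger than the difference.

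RLTR6B_Mm counts amounted to 22.4% ± 4.83 of RLTR6-int counts in KO and 26.9% ± 3.96 in WT (SD, n = 6 each). The lowest, median and highest ratios were 17.0%, 20.8% and 30.8% in KO and 22.8%, 26.3% and 34.4% in WT. The difference of the mean log2 ratios was -0.28, with 5 of 6 KO libraries below the WT median, and it did not pass the test (exact permutation p = 0.0952, adjusted p = 0.192). KO replicate 3, with the 30.8%, stood above the other KO libraries. Without that library the difference was -0.38 and passed (exact permutation, adjusted p = 0.0390). It did not pass without any other single library (exact permutation, adjusted p from 0.104 to 0.383).

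RLTR6C_Mm counts amounted to 3.47% ± 0.385 of RLTR6-int counts in KO and 4.07% ± 0.777 in WT (SD, n = 6 each). The difference of the mean log2 ratios was -0.22, again with 5 of 6 KO libraries below the WT median (exact permutation p = 0.128, adjusted p = 0.192). A stronger fall of the B and C variants than of the internal part was therefore not shown by these libraries. Between the LTR variants, RLTR6B_Mm counts were 158% ± 27.6 of RLTR6_Mm counts in KO and 192% ± 22.4 in WT (SD, n = 6 each), with overlapping groups.

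**Figure D3:**
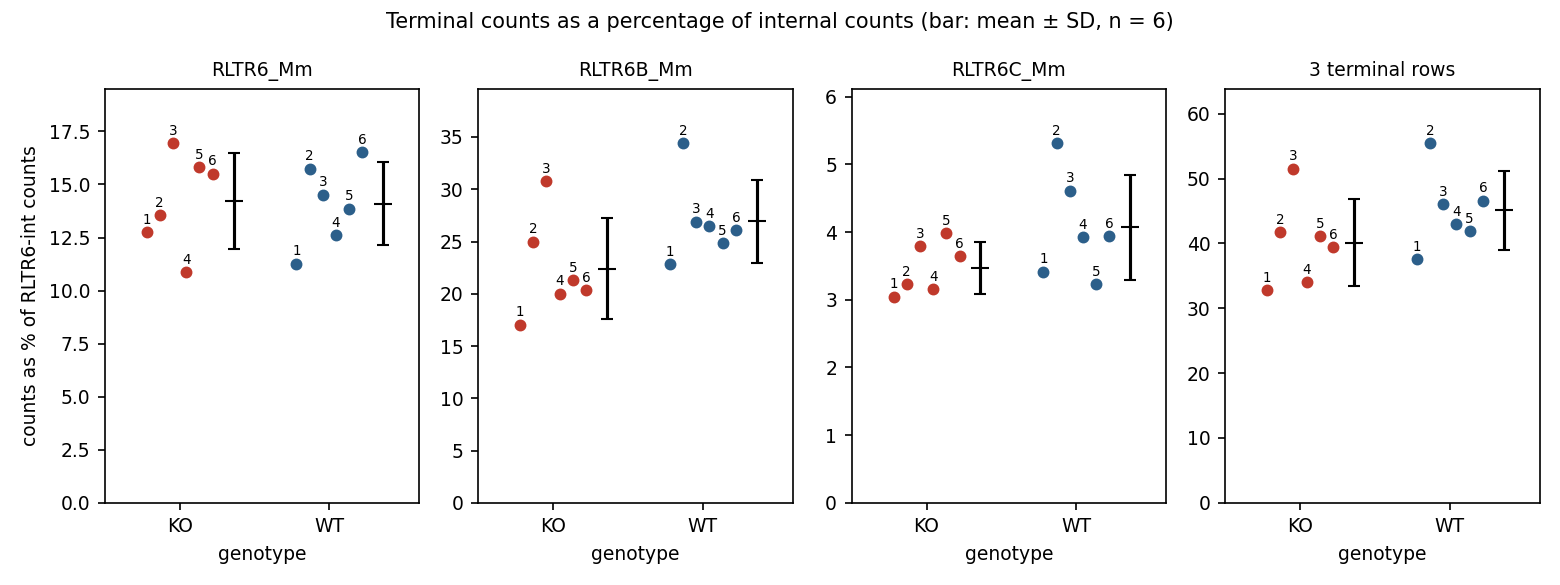
Counts of each terminal name, and of the 3 together, as a percentage of RLTR6-int counts (vertical axis, from 0) in each KO and WT library, with replicate numbers and the mean ± SD (n = 6). The groups overlap in all 4 panels, and KO replicate 3 and WT replicate 2 are the highest of their groups for RLTR6B_Mm.

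The terminal to internal ratio of other LTR retrotransposons also overlapped between the genotypes. RLTR4_Mm, an LTR of murine leukemia virus type elements, had 21.6% ± 4.83 of the counts of RLTR4_MM-int in KO and 23.1% ± 3.30 in WT (SD, n = 6 each). MMERGLN_LTR had 14.0% ± 1.74 of those of MMERGLN-int in KO and 14.1% ± 3.08 in WT, and RLTR1B had 44.5% ± 7.32 of those of RLTR1B-int in KO and 40.5% ± 5.79 in WT. MT2_Mm, the LTR of MERVL, had 22.3% ± 1.44 of those of MERVL-int in KO and 20.4% ± 0.870 in WT. For MT2_Mm the overlap was small, with a KO median of 23.0% above the highest WT library (21.0%) and a lowest KO library at 20.1%. These ratios are given as a description and were not tested.

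MMVL30-int shares the RLTR6 type of LTR and was set beside the group for that reason. Its lowest, median and highest levels were 370.3, 433 and 509 normalised CPM in KO and 471, 549 and 608 in WT. The groups overlapped, the log2 fold change was -0.31 (standard error 0.09, 95% interval -0.50 to -0.11), and it was not called (edgeR adjusted p = 0.114). RLTR6-int counts were 136% ± 26.9 of MMVL30-int counts in KO and 171% ± 25.8 in WT (SD, n = 6 each). Taken against both internal names together, the 3 terminal names held 23.0% ± 4.46 in KO and 28.2% ± 3.10 in WT. The genotypes overlapped in both of these ratios, which were not tested. Which of the internal names an LTR read belongs to cannot be read from these counts.

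Beyond RLTR6, a list of other mouse gammaretroviral names, which need not be complete, mostly had smaller negative log2 fold changes. Of 15 such names, all tested, 1 was called lower, 0 were called higher and 14 were not called (edgeR), where 1.27% of all 3312 tested repeats were called lower and 0.151% higher. At an unadjusted p under 0.05 edgeR found 10 of the 15 lower and 0 higher, beside 7.91% lower and 5.5% higher of all tested repeats. DESeq2 called 5 of the 15 lower and 0 higher after adjustment, beside 3.83% lower and 1.27% higher of all tested repeats. The median log2 fold change of the 15 was -0.31, beside 0.01 over all tested repeats, and 13 were negative. Under total-count scaling that median was -0.01, beside 0.32 over all repeats, and 0 of the 15 were called by edgeR (1 lower and 1 higher at an unadjusted p under 0.05, beside 2.14% lower and 25.4% higher of all tested repeats). The count of calls was 3 without KO replicate 2 and 4 without WT replicate 5.

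The called name was RLTR1B-int, an internal part paired with the RLTR1B terminal repeat. It averaged 334 ± 38.9 normalised CPM in KO and 489 ± 49.5 in WT (SD, n = 6 each), without overlap, and its log2 fold change was -0.55 (standard error 0.09, edgeR adjusted p = 0.0149). MMERGLN-int, the body of elements named after a glutamine transfer RNA primer, had a log2 difference of -0.41, short of the threshold (edgeR adjusted p = 0.0552), and MuRRS-int, a murine retrovirus-related sequence, had -0.50 (edgeR adjusted p = 0.0601). MuLV-int, the body of murine leukemia virus type elements, averaged 227 ± 37.5 in KO and 280.5 ± 36.3 in WT, with a log2 difference of -0.31 (edgeR adjusted p = 0.234). RLTR5_Mm and RLTR1C had positive log2 fold changes of 0.28 and 0.02, neither called (edgeR adjusted p = 0.771 and 0.973). RLTR6B_Mm and RLTR6C_Mm had lower point estimates than any of the 15, whose lowest was -0.55, and differences between names were not tested. Among ERV1 names outside the list, LTRIS4B (-1.35) and MER89 (-1.08), named after their values were seen, lay below all 4 RLTR6 names. LTRIS4B had only 364 counts over the KO libraries and 759 over the WT libraries, and a 95% interval of -1.96 to -0.73.

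**Figure D4:**
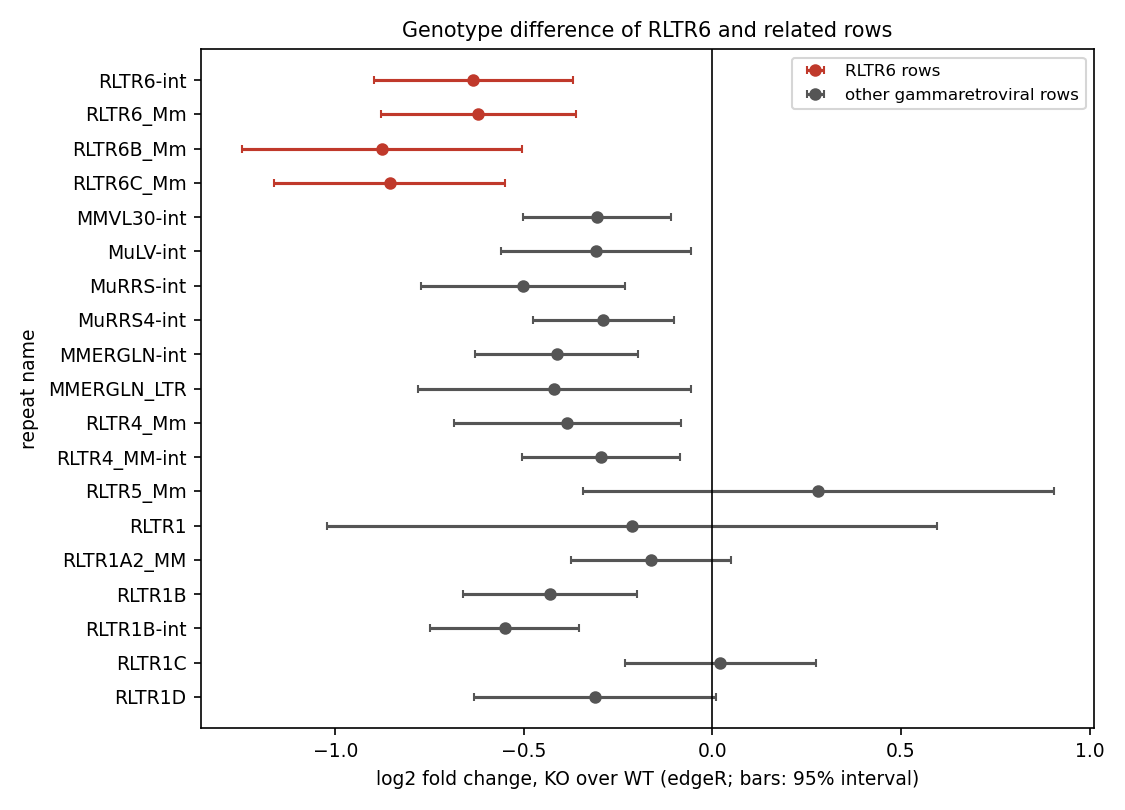
Log2 fold change, KO over WT, from edgeR (horizontal axis) with 95% intervals for the 4 RLTR6 names and 15 other gammaretroviral names (vertical axis). The RLTR6 names lie between -0.88 and -0.62, and 13 of the 15 others lie below 0, at -0.55 or above.

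In the ERV1 family outside RLTR6, 109 of 115 names were tested, and 4 (3.67%) were called lower and 0 higher by edgeR. Of all tested repeats, 1.27% were called lower and 0.151% higher by edgeR. At an unadjusted p under 0.05, 24 of the 109 were lower and 5 higher, beside 7.91% lower and 5.5% higher of all tested repeats. DESeq2 called 10 of the 109 lower and 1 higher, beside 3.83% lower and 1.27% higher of all tested repeats. The median log2 fold change of the 109 was -0.14. The 4 were RLTR1B-int, LTRIS4B with a log2 fold change of -1.35, MER89 with -1.08 and RMER5 with -0.56, the last 3 chosen after their values were seen (edgeR adjusted p = 0.0306, 0.0302 and 0.0402). The number of calls was 1 without KO replicate 1, 5 or 6 or WT replicate 3 or 6. It was 2 without KO replicate 3 or 4 or WT replicate 1, and 7 without KO replicate 2 or WT replicate 5.

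MERVL, the retrovirus of the 2-cell stage, was lower in the same KO libraries. MERVL-int averaged 32176 ± 8631 normalised CPM in KO and 66062 ± 14862 in WT (SD, n = 6 each). Over the 12 libraries, after subtraction of each genotype's mean, the log2 levels of MERVL-int had a Pearson r of 0.268 with RLTR6-int and of 0.451 with RLTR6_Mm, as a description without a test. The part of the lower MERVL and LTR shares in the values of RLTR6 was not tested.

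The repeats most like RLTR6-int by that measure were not its own LTRs. The comparison took 894 other repeats averaging 10 normalised CPM or more, counted in every library, without simple and low-complexity repeats. Among them, the 5 with the highest r were Lx4B (0.852), IAPLTR3-int (0.823), L1MdV_II (0.821), L1MdA_VI (0.813) and L1MdA_VII (0.808), 4 of which are LINE-1 names. In the comparison of the genotypes their edgeR adjusted p-values lay between 0.330 and 0.985. RLTR6-int had an r of 0.667 with RLTR6B_Mm, 0.535 with RLTR6C_Mm, 0.50 with RLTR6_Mm and 0.174 with MMVL30-int, beside a median of 0.0975 over the 894 repeats. The points share libraries, depth and scaling factors, and the order of close values is uncertain.

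RLTR6_Mm was most like L1MC1 (0.846), MERVK26-int (0.837), ERVB4_2-LTR_MM (0.834), IAPLTR3-int (0.831) and LTRIS_Mus (0.828), with a median of 0.204 over all 894. Of these, ERVB4_2-LTR_MM was also called lower in KO, by -1.12 on the log2 scale (edgeR adjusted p = 0.0177). RLTR6_Mm had an r of 0.783 with RLTR6B_Mm and 0.647 with RLTR6C_Mm. IAPLTR3-int appeared among the 5 for both members.

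Within a genotype, no correlation between the levels of the 4 names passed the correction over the 12 tested. Pearson r of the log2 levels lay between 0.604 and 0.876 for the 6 pairs in KO and between -0.00777 and 0.760 in WT, and the difference between the genotypes was not tested. The smallest adjusted p was 0.117 for r and 0.308 for Spearman's rho (exact permutation, n = 6). RLTR6-int and RLTR6C_Mm had r = 0.817 (exact permutation p = 0.0389) and rho = 0.886 (exact permutation p = 0.0333) in KO, and r = 0.869 without KO replicates 2 and 4, the pair farthest from the median. RLTR6_Mm and RLTR6B_Mm had r = 0.866 (exact permutation p = 0.0250) and rho = 0.829 (exact permutation p = 0.0583) in KO. Without KO replicates 1 and 2, the pair farthest from the median of RLTR6_Mm, that r was 0.418. Leaving out the farthest libraries narrows the range of levels, so the lower r cannot show what the relation rests on. In WT the same pair of names had r = 0.389, and r = 0.731 without WT replicates 1 and 6. RLTR6-int and RLTR6B_Mm had r = 0.768 in KO and 0.374 in WT, but r = 0.597 in KO and 0.780 in WT once replicates 2 and 4 of each genotype were left out. The order of KO and WT thus turned for both of these pairs of names with the libraries left out.

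Relative to the mean, the spread of normalised CPM between libraries was wider in KO for each of the 4 names, a difference that was not tested. The means were lower in KO, and the SD itself did not always follow. It was wider in KO for RLTR6_Mm (15.7 in KO and 12.3 in WT) and RLTR6B_Mm (42.1 in KO and 30.0 in WT). It was not wider in KO for RLTR6-int (118 in KO and 120 in WT) or RLTR6C_Mm (3.58 in KO and 4.98 in WT). The coefficient of variation of normalised CPM was 19.8% in KO and 13.0% in WT for RLTR6-int, 18.7% in KO and 9.53% in WT for RLTR6_Mm, 31.3% in KO and 12.2% in WT for RLTR6B_Mm, and 17.4% in KO and 13.4% in WT for RLTR6C_Mm. In plain CPM the order turned for 3 of the 4 names. RLTR6-int then varied by 11.7% in KO and 19.8% in WT, RLTR6_Mm by 11.8% in KO and 14.4% in WT, and RLTR6C_Mm by 8.93% in KO and 12.5% in WT. RLTR6B_Mm still varied more in KO, by 22.9%, against 14.2% in WT. The order of KO and WT in this coefficient thus depended on the scaling for the other 3.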

How the data were processed

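The authors deposited, for each repeat name, an estimated count of reads without scaling. They were whole numbers in all 12 libraries, so rounding changed nothing. Per the submitters' processing notes, the genome build was mm10, and Trimmomatic 0.32 and edgeR were used, with no role stated. The sources used here do not give the aligner, the repeat annotation or the use of strand in counting, and reads may be shared among near-identical repeats. The names of the deposited tables carry other replicate numbers than the sample titles, and the titles were used.

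KO was compared with WT by edgeR 4.0.16 in R 4.3.3 (filterByExpr, TMM, quasi-likelihood F test, genotype as the only term, Benjamini-Hochberg over 3312 repeats, threshold 0.05). The standard error was derived from the F statistic. Tested repeats held at least 99.8% of the counts of a library. Ratios and correlations were tested by exact permutation (scipy 1.17.1). Alternatives were DESeq2 1.42.0, limma-voom (limma 3.58.1), scaling by total counts, RLE or upper quartiles, other filters and row sets, a replicate block and removal of libraries.

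Of 30 replicate pairs none agreed within sampling noise (chi-square per degree of freedom from 25.0 to 144). The members and the lists were chosen with earlier results of these data known. Named are the 4 members, listed gammaretroviral names, MERVL-int, MT2_Mm, and for RLTR6-int and RLTR6_Mm the 5 repeats of highest correlation. LTRIS4B, MER89 and RMER5 fall outside this rule and were named after their values were seen. No gene was counted in the files, so the Kdm4a level was not analysed here. The sources used here mention no molecular identifiers, so reads need not be separate molecules.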

Additional observations from a re-analysis of the deposited data

Results flagged for a closer look

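Among 54 groups of 6 libraries examined for a value far from the others, 4 held one, and chance gives about 1 in 20. In WT replicate 2, RLTR6B_Mm made up 22.1% of the RLTR6 counts and 34.4% of the RLTR6-int counts, above the other WT libraries. Both values come from the same ratio, and this library also stood apart on principal components. RLTR4_Mm counts were 31.3% of RLTR4_MM-int counts in KO replicate 3, above the other KO libraries. MT2_Mm counts were 18.7% of MERVL-int counts in WT replicate 1, below the other WT libraries.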

How the results depend on the processing

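The log2 fold changes of the 4 RLTR6 names were negative under all 23 alternatives run for each, from -0.74 to -0.35 for RLTR6-int, -0.71 to -0.33 for RLTR6_Mm, -1.02 to -0.59 for RLTR6B_Mm and -0.93 to -0.56 for RLTR6C_Mm. RLTR6C_Mm kept its call under all of them, and the others lost theirs under 9, 5 and 6 alternatives for RLTR6-int, RLTR6_Mm and RLTR6B_Mm. Under total-count scaling, RLTR6-int (-0.35) and RLTR6_Mm (-0.33) lost the call. There edgeR called 390 repeats (357 higher, 33 lower), 0 of the gammaretroviral list and 8 other ERV1 names (6 higher, 2 lower). Under TMM it called 47 (5 higher, 42 lower), 1 and 4 (0 higher, 4 lower). With no filter, 10386 repeats were tested, 18 were called, 1 of them an ERV1 name outside RLTR6, and RLTR6-int (-0.62), RLTR6_Mm (-0.61) and RLTR6B_Mm (-0.86) lost the call. A mean of at least 10 CPM gave 114 calls, with 5 in the list and 8 in ERV1 (0 higher, 8 lower). Removal of simple repeats gave 108, 5 and 10, and DESeq2 gave 169, 5 and 11. The number of repeats tested differed between some of these settings, and the causes of the shifts were not tested. Without WT replicate 2 and KO replicate 5, left out together after the data were seen, edgeR called 23 repeats and 1 in ERV1, and RLTR6-int (-0.66), RLTR6_Mm (-0.64) and RLTR6B_Mm (-0.81) lost the call.

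Without single libraries, the calls ranged from 19 (without KO replicate 6 or WT replicate 6) to 93 (without KO replicate 2), from 1 to 4 in the list and from 1 to 7 in ERV1. The log2 fold changes ranged from -0.74 to -0.57 for RLTR6-int, -0.71 to -0.55 for RLTR6_Mm and -1.02 to -0.77 for RLTR6B_Mm. The difference of the log2 ratio to RLTR6-int ranged from -0.051 to 0.086 for RLTR6_Mm, turning below 0 without 5 of the libraries, from -0.38 to -0.21 for RLTR6B_Mm and from -0.28 to -0.13 for RLTR6C_Mm. The log2 ratio of the mean RLTR6 shares, KO over WT, was -0.40 of all counts, -0.61 of counts outside the ERVL and ERVL-MaLR families and -0.38 of ERV1 counts. With 0.5 added to each count, no ratio changed its side of the threshold.

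The replicate block, with the number in the titles as a term, gave 48 calls and left all 4 RLTR6 names called (edgeR adjusted p at most 0.0433). In the ratios it gave exact adjusted p-values of 0.938, 0.188 and 0.281 for RLTR6_Mm, RLTR6B_Mm and RLTR6C_Mm. Same-numbered libraries correlated between -0.125 and 0.196 in their deviations from the group means, so the numbers were not taken as pairs, and 2 of the 6 KO libraries correlated best with their own number. Depth limits RLTR6C_Mm most, at 192 to 786 counts a library.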
